A study of Homo sapiens with 32 samples.

Results

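The 10 genes described here handle heme and iron. They are the heme synthesis enzymes ALAS1, UROD, CPOX and FECH, the heme breakdown enzymes HMOX1, HMOX2 and BLVRB, the iron importer TFRC, and the ferritin subunits FTH1 and FTL. They were taken by symbol from the 22610 gene entries of a table in FPKM, a unit that divides reads by transcript length and by library size, and all 10 were found there. The list was chosen by function with earlier results of these data in view, in particular the differences between CBD and vehicle, so those differences are described for the 10 genes without a test. Tests are given for the change with time in vehicle alone and for the other genes of the same pathways, whose lists were also drawn up with earlier results known.

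RNA-Seq was made from SK-N-BE(2), a human neuroblastoma cell line, treated with 20 μM cannabidiol (CBD, the main non-intoxicating cannabinoid of Cannabis sativa) or with vehicle, 0.1% ethanol, for 3, 6, 12 or 24 h. Each of the 8 groups held 4 replicates, 32 samples in all, and the CBD cultures received ethanol as the solvent too. All samples come from 1 cell line at 1 dose. The labels number the replicates without saying that they were grown apart, so p values measure the spread between these samples, which may be technical in part.

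Of 8 markers of noradrenergic neuroblastoma, all 8 had a mean of at least 1 FPKM, and their summed level was 2787 to 2983 FPKM in vehicle and 2952 to 3635 FPKM in CBD. None of the 5 erythroid markers analysed, ALAS2 among them, reached that mean, and their sum stayed at or below 0.152 FPKM in every sample. The 5 leukocyte and macrophage markers summed to 1.48 to 2.23 FPKM in vehicle and 1.46 to 2.15 FPKM in CBD, and none of 4 hepatocyte markers reached a mean of 1. Of 5 fibroblast markers 3 did so, led by LUM at 56.5 FPKM, with COL1A2 at 0.00918 FPKM, and their sum overlapped between treatments (53.1 to 77.1 and 58.6 to 71.2 FPKM). FPKM keep no read totals. Depth relative to the median sample, estimated from 1414 genes with few reads, ran from 0.794 to 1.20, with group medians of 1.05, 1.05, 1.00 and 1.02 in vehicle and 0.925, 0.954, 0.928 and 1.00 in CBD at 3, 6, 12 and 24 h. The part of this difference in the results below was not tested.

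Heme is an iron-holding porphyrin made partly in mitochondria and partly in the cytosol. ALAS1 makes the first committed precursor and is the rate-limiting step outside red blood cells, UROD and CPOX work in the middle of the pathway, and FECH inserts the iron at its end. Heme oxygenases, the inducible HMOX1 and the constitutive HMOX2, open the ring to biliverdin, carbon monoxide and free iron, and BLVRB is a biliverdin and flavin reductase. Cells take up transferrin-bound iron through the receptor TFRC and keep spare iron in ferritin, a cage of heavy (FTH1) and light (FTL) chains. Heme represses ALAS1 and induces HMOX1, while iron acts on TFRC and ferritin through iron regulatory proteins, which bind a hairpin in the mRNA, the iron-responsive element: a hairpin in the 3' UTR protects the TFRC message, and one in the 5' UTR blocks translation of ferritin messages.

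The iron-responsive elements are shown because the search described here found them in TFRC, FTH1 and FTL and in no other member. A search of the members' reference transcripts for a bulged C, then 5 bases, then the loop CAGTGN, with the 5 bases able to pair with those after the loop, found 4 sites in the 3' UTR of TFRC, 1 in the 5' UTR of FTH1 and 1 in the 5' UTR of FTL. The other 7 members held none, and elements that depart from this pattern would be missed. Across 19807 protein-coding genes, 303 (1.53%) held the pattern in some transcript. Of the other heme and iron genes listed for this work, ALAS2, SLC40A1 and TF held it. The sites are printed as the mRNA strand in DNA letters (GRCh37), with the bulged C and the loop in capitals.
TFRC site 1, chr3:195777849-195777878, minus strand: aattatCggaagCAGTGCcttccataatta
TFRC site 2, chr3:195777445-195777474, minus strand: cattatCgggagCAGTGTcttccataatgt
TFRC site 3, chr3:195777380-195777409, minus strand: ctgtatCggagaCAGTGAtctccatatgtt
TFRC site 4, chr3:195777333-195777362, minus strand: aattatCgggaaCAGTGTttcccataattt
FTH1, chr11:61735045-61735074, minus strand: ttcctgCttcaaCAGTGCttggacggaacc
FTL, chr19:49468592-49468621, plus strand: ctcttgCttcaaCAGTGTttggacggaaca
Between the bulged C and the loop, the FTH1 and FTL elements have the same 5 bases, and the 4 TFRC elements have 4 different runs. The element bears on protein made from ferritin mRNA, which RNA-Seq does not measure, and on the stability of TFRC mRNA.

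Levels in vehicle, compared per length as FPKM over the 16 vehicle samples, spanned from FTH1 (mean 495, range 472 to 523) and FTL (mean 430.5, range 401 to 478) down to HMOX1 (0.984, range 0.762 to 1.27) and BLVRB (0.359, range 0.158 to 0.817). FTH1 and FTL stood above 98.9% and 98.8% of the genes tested. Between these ends lay TFRC at 72.7 FPKM, UROD at 35.1, HMOX2 at 20.6, ALAS1 at 10.9, CPOX at 7.63 and FECH at 4.12. Neighbours in this order did not overlap in any vehicle sample, except FTH1 with FTL and HMOX1 with BLVRB. A mean of at least 1 FPKM over all 32 samples was required for testing. HMOX1 met it only through the CBD samples, and BLVRB, at 0.423 FPKM, did not, so 9 of the 10 members are in the fit and the fold changes of BLVRB come from a fit without the filter.

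**Figure D1:**
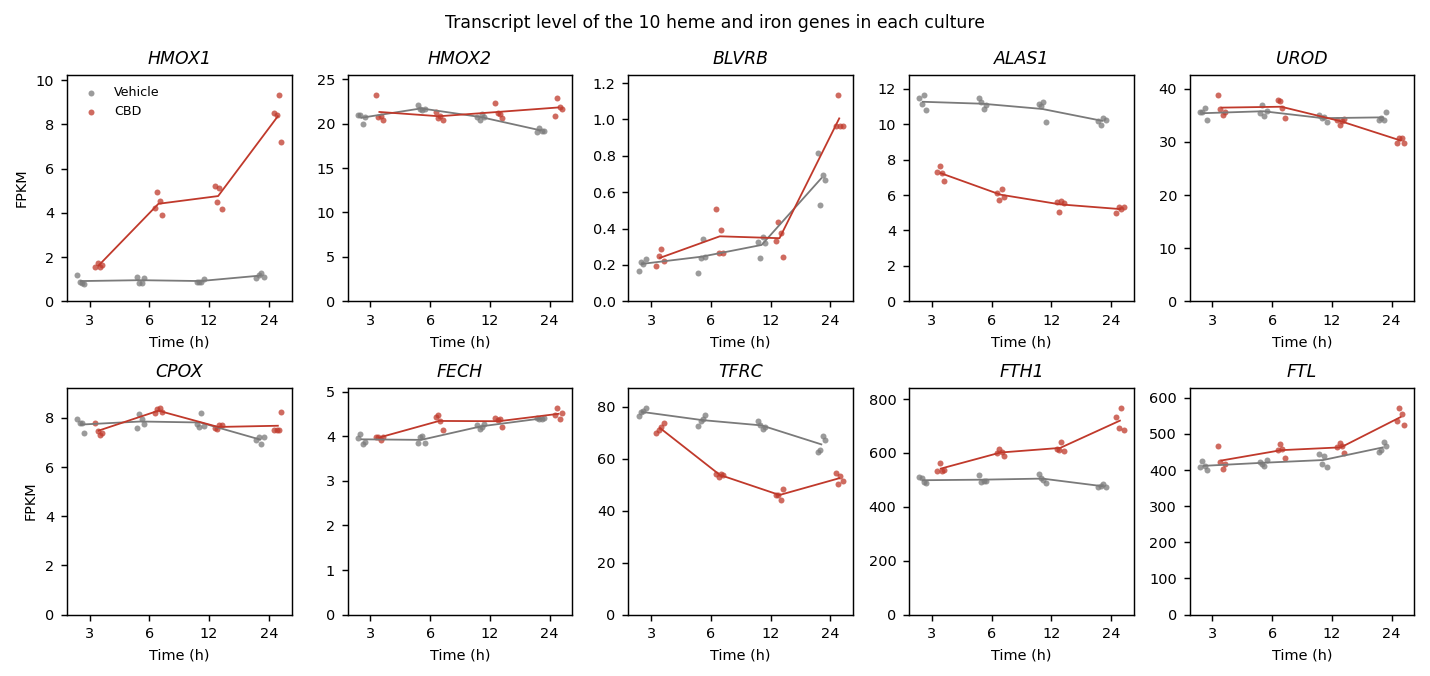
FPKM (linear axis from 0) of the 10 genes against time in h, 1 point for each of the 32 samples, vehicle in grey and CBD in red, with lines through the means of 4. HMOX1 in CBD climbed from 1.62 to 8.37 FPKM, ALAS1 in CBD lay below vehicle at all 4 times, and TFRC in CBD was lowest at 12 h.

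HMOX1 (chr22:35776354-35790207, plus strand, GRCh37), the inducible heme oxygenase, had the largest log2 difference between treatments of any member at 6, 12 and 24 h. Its vehicle samples had 0.762, 0.838, 0.862 and 1.19 FPKM at 3 h and its CBD samples 1.56, 1.57, 1.64 and 1.72. At 6 h the values were 0.816, 0.844, 1.04 and 1.11 in vehicle and 3.92, 4.23, 4.55 and 4.93 in CBD, and at 12 h they were 0.874, 0.880, 0.886 and 1.01 against 4.19, 4.49, 5.12 and 5.22. At 24 h vehicle had 1.07, 1.09, 1.21 and 1.27 FPKM and CBD 7.21, 8.42, 8.52 and 9.32. Treatments did not overlap at any time, and every CBD sample at 24 h lay above every CBD sample at 12 h. The ratio of mean FPKM was 1.78, 4.63, 5.21 and 7.23 at 3, 6, 12 and 24 h, and the log2 fold change of FPKM + 1, which understates changes of a gene this low, was 0.46, 1.47, 1.59 and 2.11 (SE 0.072, n = 4 and 4). The size rests on the value added before the logarithm, and with 0.1 in place of 1 the fold changes were 0.78, 2.10, 2.26 and 2.75. In bulk samples, more RNA per cell and more cells that make it cannot be told apart.

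HMOX2 (chr16:4524691-4560348, plus strand), the constitutive enzyme of the same reaction, stayed within 19.0 to 23.2 FPKM over all samples. At 24 h CBD had 20.8, 21.7, 21.9 and 22.9 FPKM and vehicle 19.0, 19.2, 19.2 and 19.5, a log2 difference of 0.17 (SE 0.030). At 6 h the order was opposite, with 20.5, 20.7, 20.8 and 21.4 in CBD against 21.5, 21.6, 21.7 and 22.1 in vehicle (log2 difference -0.057), and at 3 and 12 h the treatments overlapped. HMOX1 therefore made up a growing share of the summed FPKM of both enzymes. It was 4.22% ± 0.78, 4.20% ± 0.58, 4.22% ± 0.30 and 5.67% ± 0.40 in vehicle at 3, 6, 12 and 24 h (SD, n = 4) and 7.09% ± 0.60, 17.4% ± 1.5, 18.2% ± 1.3 and 27.7% ± 2.2 in CBD. HMOX2 remained the more abundant of the pair, per length, in each of the 32 samples. Its annotated exons share 3.05% of their bases with NMRAL1 on the other strand, which lay between 16.4 and 19.3 FPKM in all samples.

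BLVRB (chr19:40953672-40971671, minus strand), a biliverdin and flavin reductase, had the lowest level of the 10 in vehicle. At 24 h it had 0.527, 0.668, 0.694 and 0.817 FPKM in vehicle and 0.961, 0.963, 0.965 and 1.13 in CBD, and the treatments did not overlap (log2 difference 0.26, SE 0.055). At 3, 6 and 12 h they overlapped, with vehicle means of 0.206, 0.245 and 0.310 FPKM and CBD means of 0.239, 0.357 and 0.347. The size of the 24 h log2 difference rests on the value added before the logarithm. It was 0.52 with 0.1 and 0.081 with 5 in place of 1.

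ALAS1 (chr3:52232102-52248343, plus strand), the first enzyme of heme synthesis, was lower with CBD from the earliest time. Vehicle had 10.8, 11.1, 11.5 and 11.6 FPKM at 3 h and CBD 6.81, 7.25, 7.28 and 7.62. The lowest vehicle sample at any time had 9.96 FPKM, above the highest CBD sample, 7.62. At 6 h CBD had 5.75, 5.89, 6.14 and 6.33 FPKM, at 12 h 5.02, 5.58, 5.61 and 5.68, and at 24 h 4.997, 5.19, 5.31 and 5.34, while vehicle had 10.9 to 11.5, 10.1 to 11.2 and 9.96 to 10.4. The CBD mean was thus 64.2%, 54.0%, 50.4% and 51.1% of the vehicle mean. On the log2 scale the differences were -0.58, -0.79, -0.87 and -0.85 (SE 0.035), with most of the difference present at 3 h and the means of 12 and 24 h close together.

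The 3 later enzymes of heme synthesis moved little. UROD (chr1:45476622-45481247, plus strand), which removes carboxyl groups from uroporphyrinogen, had 29.7, 29.9, 30.7 and 30.8 FPKM in CBD at 24 h and 34.1, 34.2, 34.6 and 35.6 in vehicle, with no overlap (log2 difference -0.19, SE 0.028), and it overlapped at 3, 6 and 12 h. Its exons share 9.31% of their bases with HECTD3 on the other strand, which lay between 10.01 and 12.7 FPKM in all samples. CPOX (chr3:98298290-98312492, minus strand), coproporphyrinogen oxidase, had 8.19, 8.25, 8.34 and 8.38 FPKM in CBD and 7.58, 7.75, 7.94 and 8.14 in vehicle at 6 h. At 24 h it had 7.49, 7.49, 7.50 and 8.24 against 6.93, 7.12, 7.20 and 7.22. The CPOX log2 differences were -0.041, 0.070, -0.030 and 0.095 (SE 0.026), without overlap at 6 and 24 h. CPOX exons share 5.16% of their bases with another protein-coding gene on the same strand. Of the 50-base words of the CPOX transcript, 4.32% occur in that gene. FECH (chr18:55211609-55253964, minus strand), ferrochelatase, did not overlap at 6 h alone, with 4.14, 4.34, 4.44 and 4.47 FPKM in CBD and 3.84, 3.85, 3.98 and 4.02 in vehicle. Its log2 differences were 0.012, 0.12, 0.031 and 0.028 (SE 0.019).

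TFRC (chr3:195739382-195809024, minus strand), the transferrin receptor, was lower with CBD at each time without overlap. Vehicle had 76.3, 77.8, 78.4 and 79.3 FPKM at 3 h and CBD 70.0, 71.1, 72.0 and 73.8. At 6 h vehicle had 72.6, 74.6, 75.2 and 76.8 and CBD 53.0, 53.7, 54.0 and 54.2, and at 12 h vehicle had 71.4, 72.3, 72.8 and 74.5 and CBD 43.996, 45.8, 45.9 and 48.2. At 24 h vehicle had 62.6, 63.4, 67.3 and 68.6 FPKM and CBD 50.4, 51.5, 53.2 and 54.6. The difference thus narrowed at the last time, since vehicle was lower there and CBD higher than at 12 h. The CBD mean was 92.0%, 71.8%, 63.2% and 80.1% of vehicle, with log2 differences of -0.12, -0.47, -0.65 and -0.31 (SE 0.028). These are the transcripts with the 4 hairpins printed above.

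FTH1 (chr11:61727190-61735106, minus strand), the ferritin heavy chain with its ferroxidase site, was higher with CBD at each time. Vehicle had 488, 491, 507 and 509 FPKM at 3 h and CBD 533, 535, 537 and 562. At 6 h the values were 493, 496, 496 and 519 against 589.6, 599, 602 and 615, and at 12 h 488, 501, 507 and 523 against 606, 611, 615 and 642. At 24 h vehicle had 472, 475, 476 and 485 FPKM and CBD 686, 694, 735 and 765. Treatments did not overlap at any time, and the 24 h difference of means, 243 FPKM, was the largest of any member in absolute terms. Log2 differences were 0.12, 0.26, 0.29 and 0.59 (SE 0.029). Under quantile normalization the difference at 3 h was 0.035. The locus shares sequence with other genes. The annotated exons of FTH1 share 63.2% of their bases with BEST1 on the other strand, whose entry lay between 1.05 and 1.90 FPKM in vehicle and 1.38 and 3.37 in CBD, and 41.3% of the 50-base words of the FTH1 transcript occur in 15 other genes, FTH1P10 most. The authors allowed reads to map to more than 1 place, and whether strand was used in counting was not stated.

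FTL (chr19:49468566-49470136, plus strand), the light chain, was higher with CBD without overlap at 6, 12 and 24 h and by less than FTH1. Vehicle had 401, 409.6, 411 and 425 FPKM at 3 h and CBD 402, 416, 422 and 466. CBD had 434, 454, 459 and 473 at 6 h against 412, 417, 423 and 428 in vehicle, while the 12 h groups almost met, with 446 as the highest vehicle sample and 447 as the lowest CBD sample. At 24 h vehicle had 450.5, 455, 467 and 478 FPKM and CBD 524, 537, 555 and 570.5. Log2 differences were 0.049, 0.11, 0.11 and 0.24 (SE 0.037). Of the 50-base words of its transcript, 18.5% occur in 2 other genes, FTLP3 most.

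Heavy and light chain were close to parity in vehicle, with FTH1 at 1.21 ± 0.02, 1.19 ± 0.03, 1.18 ± 0.03 and 1.03 ± 0.02 times the FPKM of FTL at 3, 6, 12 and 24 h (SD, n = 4). In CBD the ratio was 1.27 ± 0.09, 1.32 ± 0.03, 1.34 ± 0.04 and 1.32 ± 0.07, without overlap at 6, 12 and 24 h. Summed ferritin over TFRC, a ratio of storage to import transcripts, was 11.7 ± 0.4, 12.3 ± 0.4, 12.8 ± 0.3 and 14.4 ± 0.4 in vehicle and 13.5 ± 0.7, 19.7 ± 0.6, 23.6 ± 1.4 and 24.2 ± 0.9 in CBD. The ratio differed between treatments without overlap at all 4 times, and in CBD its means at 12 and 24 h were within 1 SD of each other.

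**Figure D2:**
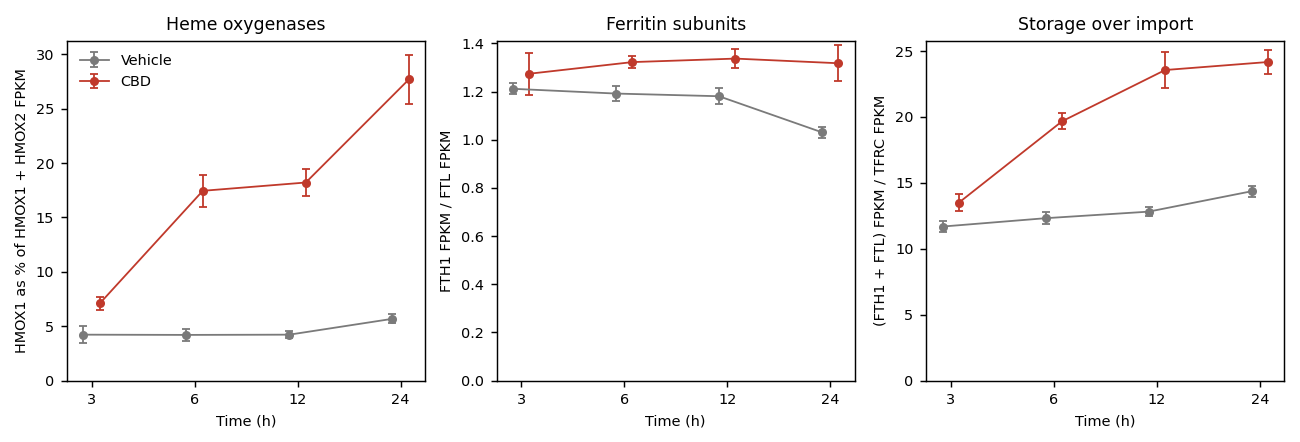
Mean ± SD of 4 samples against time in h for vehicle (grey) and CBD (red), all axes from 0: HMOX1 as a percent of the summed FPKM of HMOX1 and HMOX2, FTH1 over FTL, and FTH1 + FTL over TFRC. The HMOX1 share reached 27.7% in CBD at 24 h against 5.67% in vehicle, and ferritin over TFRC reached 24.2 against 14.4.

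Of all 12621 genes, 1.18% were called higher and 1.28% lower with CBD at 3 h at an adjusted p under 0.01 in limma. At 6 h 4.07% and 6.13% were called higher and lower, at 12 h 8.85% and 11.2%, and at 24 h 20.8% and 21.3%. Calls of the members are not counted, since these differences guided their choice. Treatments did not overlap for 4, 8, 5 and 9 of the 10 members at 3, 6, 12 and 24 h, where 9.88%, 19.6%, 30.3% and 51.0% of the genes tested did not. These counts follow the choice of the members, and no more is read from them. The median log2 difference of the tested members was 0.040, 0.070, 0.031 and 0.095, and that of all genes was 0.0066, -0.0048, -0.0043 and -0.0032.

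**Figure D3:**
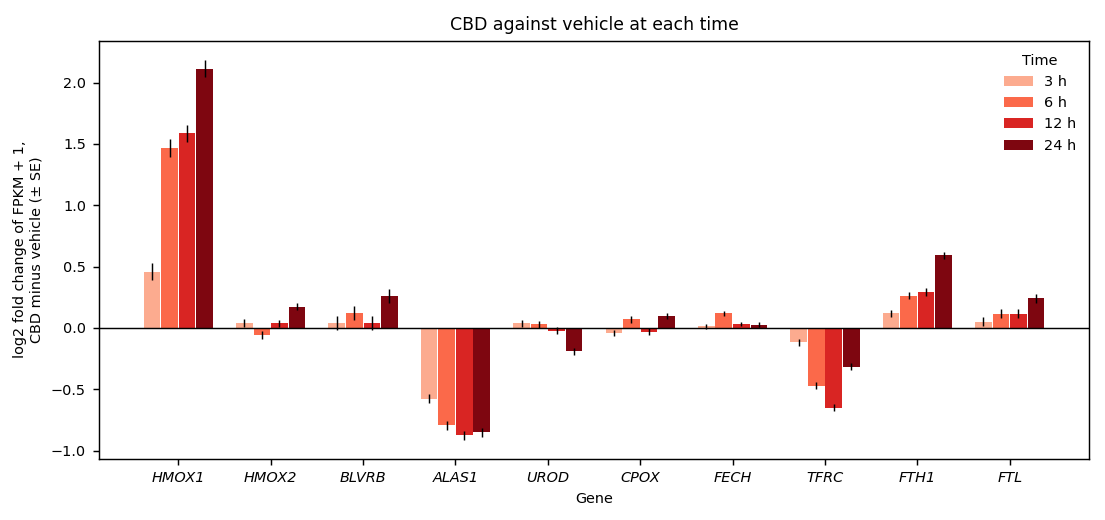
Log2 fold change of FPKM + 1, CBD minus vehicle, for the 10 genes, with bars from 0 for 3, 6, 12 and 24 h (light to dark) and the standard error of the fit. HMOX1 reached 2.11 at 24 h, FTH1 0.59, ALAS1 -0.85, and TFRC was lowest at 12 h with -0.65. BLVRB comes from the fit without a filter.

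In vehicle, 6 of the 9 tested members were called as different between 3 and 24 h. FECH rose from 3.84, 3.88, 3.96 and 4.07 FPKM to 4.39, 4.39, 4.41 and 4.42 (log2 change 0.13, SE 0.019, limma adjusted p = 1.209e-06), and FTL rose by 0.17 (SE 0.037, adjusted p = 0.000263). The samples of the 2 times did not overlap for either gene. TFRC fell by 0.25 (SE 0.028, adjusted p = 1.969e-08), ALAS1 fell by 0.13 (SE 0.035, adjusted p = 0.001662), CPOX fell by 0.10 (SE 0.026, adjusted p = 0.00107) and HMOX2 fell by 0.098 (SE 0.030, adjusted p = 0.005493). The call of HMOX2 was lost under 7 of 17 alternatives, with an adjusted p up to 0.1048, and that of FECH under quantile normalization (0.02014). HMOX1 at 0.18 (adjusted p = 0.03162), FTH1 at -0.065 (0.05074) and UROD at -0.031 (0.3421) were not called. FTH1 passed under median-ratio scaling (-0.095, limma adjusted p = 0.003061). HMOX1 passed with 0.1 added before the logarithm (0.33, 0.008576) and without vehicle 3 h replicate 1 (0.24, 0.004111). With a vehicle mean of 0.984 FPKM, HMOX1 entered this test only through its CBD samples, so its values here are a description. BLVRB went from 0.206 to 0.676 FPKM, a log2 change of 0.47 (SE 0.055, limma adjusted p = 5.305e-08) in the fit without a filter. The size of this BLVRB change ran from 0.12 to 1.34 over 15 alternatives. Of all genes, 26.6% were called higher and 31.1% lower in this comparison, so a share of 2 higher and 4 lower among 9 is near the background.

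**Figure D4:**
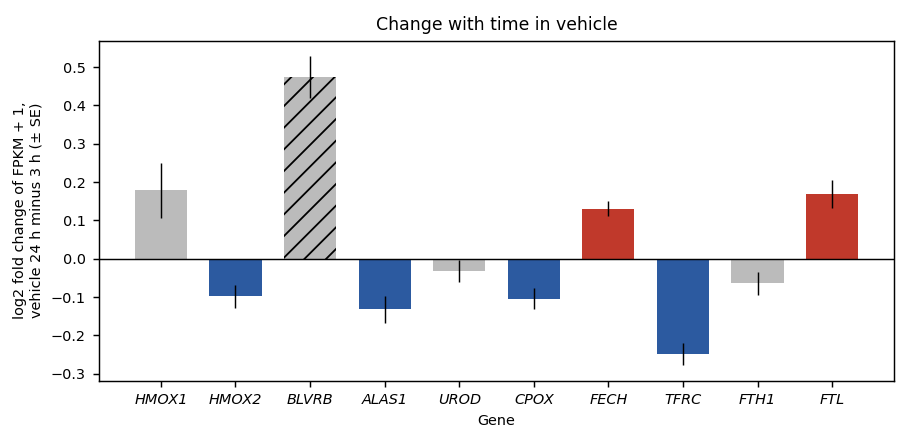
Log2 change of FPKM + 1 in vehicle from 3 to 24 h for the 10 genes, with the standard error, red for called higher and blue for called lower (limma adjusted p under 0.01), grey for not called and hatched for BLVRB, which was below the filter. FECH and FTL rose by 0.13 and 0.17, and TFRC fell by 0.25.

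The setting of these members among the rest of heme and iron metabolism was read from 63 other genes, listed by role, of which 53 passed the filter. Of the 53, 0 were called higher and 1 lower with CBD at 3 h in limma (9 and 1 at an unadjusted p under 0.05), 3 higher and 2 lower at 6 h, 4 higher and 2 lower at 12 h, and 18 higher and 6 lower at 24 h. The median log2 difference was 0.023, 0.033, 0.016 and 0.048, beside the medians near 0 of all genes given above. Their shares are to be read against the shares of all genes called, given above for each time, 20.8% and 21.3% at 24 h. All genes were not counted at the unadjusted limit, so counts at that limit, here and below, have no background. The CBD effect itself differed between 24 and 3 h, as its own test, for 14 of the 53, with 10 more positive and 4 more negative at 24 h, where 12.9% and 14.3% of all genes were so called.

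With CBD at 24 h, 20.8% of all genes were called higher and 21.3% lower. Among genes that move or sense heme or act beside its breakdown, 5 of 7 were called higher and 0 lower at 24 h. At an unadjusted p under 0.05, 6 of these genes were higher and 0 lower. SLC48A1, a transporter that brings heme out of endolysosomes, was the largest of them. It had 3.48 to 3.80 FPKM in vehicle and 6.60 to 8.04 in CBD at 24 h without overlap, with log2 rises of 0.44, 0.42 and 0.86 over 6, 12 and 24 h (SE 0.063, limma adjusted p = 1.321e-05, 9.534e-06 and 1.367e-11). The later effect, 24 h, was larger than the earlier, 3 h, by 0.72 (SE 0.089, adjusted p = 4.344e-07). HEBP1, a heme-binding protein, rose by 0.18 at 6 h and 0.33 at 24 h (SE 0.041, adjusted p = 0.002162 and 1.756e-07). The HEBP1 call at 6 h was lost under 4 of 17 alternatives, with an adjusted p up to 0.0186. HEBP1 also rose with time in vehicle by 0.70 (adjusted p = 7.303e-14), from 3.71 to 3.93 FPKM at 3 h to 6.40 to 7.16 at 24 h. BLVRA, the other biliverdin reductase, rose by 0.10 at 24 h, and POR, the reductase that feeds electrons to heme oxygenases, by 0.21. FLVCR1, a heme exporter of the plasma membrane, fell by 0.21 at 3 h and rose by 0.15 and 0.14 at 12 and 24 h (SE 0.027, adjusted p = 1.825e-05, 8.975e-05 and 0.0001194). The FLVCR1 calls at 3 and 12 h were lost with only the groups compared fitted (adjusted p = 0.02024 and 0.01536). The BLVRA call was lost under 8 of 17 alternatives, with an adjusted p up to 0.02799. BLVRA, POR and FLVCR1 were picked after their values were seen.

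In heme synthesis, 9 other genes were tested, with 1 higher and 2 lower at 24 h at an unadjusted p under 0.05. After adjustment 0 were called higher and 2 lower, beside 20.8% and 21.3% of all genes. They were ALAD, the enzyme after ALAS1, which fell by 0.13 at 6 h and 0.22 at 24 h (SE 0.027, limma adjusted p = 0.0008669 and 2.206e-07; the 6 h call was lost with only the groups compared fitted, 0.01208), and ABCB10, a mitochondrial transporter, which fell by 0.11. At 6 h ALAD was called lower and TMEM14C, a porphyrin transporter of mitochondria, higher by 0.18. At 12 h none was called in limma (2 higher and 1 lower at an unadjusted p under 0.05). Of all genes, 4.07% were called higher and 6.13% lower at 6 h, and 8.85% and 11.2% at 12 h. With only the groups compared fitted, ABCB10 at 24 h and TMEM14C at 6 h were lost too (limma adjusted p = 0.01003 and 0.01361). ALAD, ABCB10 and TMEM14C were picked after their values were seen. ALAS2, the red cell counterpart of ALAS1, had a mean of 0.0142 FPKM.

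In iron import, 4 of 7 genes were called higher and 0 lower at 24 h (5 and 0 at an unadjusted p under 0.05). Of all genes, 20.8% were called higher and 21.3% lower at that time. SLC25A37, mitoferrin, the iron importer of mitochondria, had 12.8 to 13.7 FPKM in vehicle and 16.2 to 16.8 in CBD at 24 h, with rises of 0.20 at 12 h and 0.30 at 24 h (SE 0.028, limma adjusted p = 2.751e-06 and 1.406e-09). STEAP3, which reduces iron in endosomes after transferrin uptake, had 5.12 to 5.48 FPKM in vehicle and 6.31 to 7.26 in CBD at 24 h, with rises of 0.19 at 12 h and 0.29 at 24 h (SE 0.042, adjusted p = 0.001216 and 2.22e-06). SLC11A2, the divalent metal transporter, and SLC39A14, a zinc and iron transporter, rose by 0.12 and 0.11 at 24 h, and both were picked after their values were seen. In the test of the 24 h effect against the 3 h effect all 4 passed as more positive. The calls of SLC11A2 and SLC39A14 at 24 h were lost under 7 and 1 of 17 alternatives (adjusted p up to 0.02406 and 0.01465), and their tests of 24 h against 3 h under 12 and 7 of 25 (up to 0.01869 and 0.02305). TFRC, described above, was lower at the time when these 4 import genes were higher.

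Of the 3 genes of iron storage and release tested, NCOA4, the receptor that sends ferritin to lysosomes, was called higher by 0.055 at 24 h and PCBP1, a chaperone that hands iron to ferritin, lower by 0.090. Of the 3 iron sensing genes, FBXL5, the ubiquitin ligase subunit that removes iron regulatory protein 2, rose by 0.26 at 24 h (SE 0.026, limma adjusted p = 3.093e-09), from 10.5 to 11.2 FPKM in vehicle to 13.0 to 13.4 in CBD. The iron regulatory proteins themselves, ACO1 and IREB2, were not called with CBD at any time (0.076 and -0.090 at 24 h, limma adjusted p = 0.05719 and 0.08817), although ACO1 passed at 24 h with those groups fitted alone (adjusted p = 0.005413). SLC40A1, ferroportin, the only iron export gene tested, had a mean of 1.056 FPKM, just above the filter of 1. It was not called in CBD against vehicle at any time in limma. Its log2 differences were -0.13 and -0.14 at 12 and 24 h, both under an unadjusted p of 0.05. The 24 h value passed under 5 of 16 alternatives (limma adjusted p down to 0.005569). The 12 h value passed under quantile normalization (-0.19, limma adjusted p = 0.00261). The NCOA4 call was lost under 9 of 17 alternatives (adjusted p up to 0.1276), and that of PCBP1 under 3 (up to 0.2171, under quantile normalization). NCOA4, PCBP1 and FBXL5 were picked after their values were seen.

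Of 23 genes of iron-sulfur cluster assembly, the other large use of mitochondrial iron, 7 were called higher and 3 lower at 24 h. At 12 h 0 were called higher and 2 lower (3 and 9 at an unadjusted p under 0.05). At 6 h 0 were called higher and 1 lower (1 and 3 at an unadjusted p under 0.05). The shares of all genes called higher and lower were 20.8% and 21.3% at 24 h and 8.85% and 11.2% at 12 h. At 6 h they were 4.07% and 6.13%. ISCA1, an assembly factor, fell by 0.13 at 12 h and 0.27 at 24 h (SE 0.029, limma adjusted p = 0.001579 and 1.813e-08), from 27.1 to 29.8 FPKM in vehicle to 22.8 to 24.4 in CBD at the later time. The ISCA1 call at 12 h was lost without CBD 12 h replicate 1 (adjusted p = 0.01107) and with the 2 groups fitted alone (0.0117). The others called lower were CIAO1 at 6 and 24 h (-0.10 and -0.11), IBA57 at 24 h (-0.14) and NFS1 at 12 h (-0.10, lost under 10 of 17 alternatives, adjusted p up to 0.04757). CIAO1 at 6 h was lost under 6 of 17 (up to 0.02164) and IBA57 under 5 of 16 (up to 0.05223). NUBP1, with no call at a single time, had an effect more negative at 24 h than at 3 h by -0.23 (adjusted p = 0.003999), a call lost under 4 of 25 alternatives (up to 0.01261), and its 12 h difference of -0.14 passed under 2 of 17 (down to 0.008863). HSPA9, the mitochondrial Hsp70, rose by 0.22 at 24 h (adjusted p = 2.743e-07). CIAO1, IBA57, NFS1, NUBP1 and HSPA9 were picked after their values were seen. Of the 7 genes called higher at 24 h only HSPA9 is named, while all 3 called lower are. FDXR, ferredoxin reductase, was not called with CBD at any time and rose with time in vehicle by 0.59 (SE 0.063, adjusted p = 7.278e-09). In that comparison of vehicle with itself 11 of the 53 other genes rose and 21 fell, beside 26.6% and 31.1% of all genes.

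**Figure D5:**
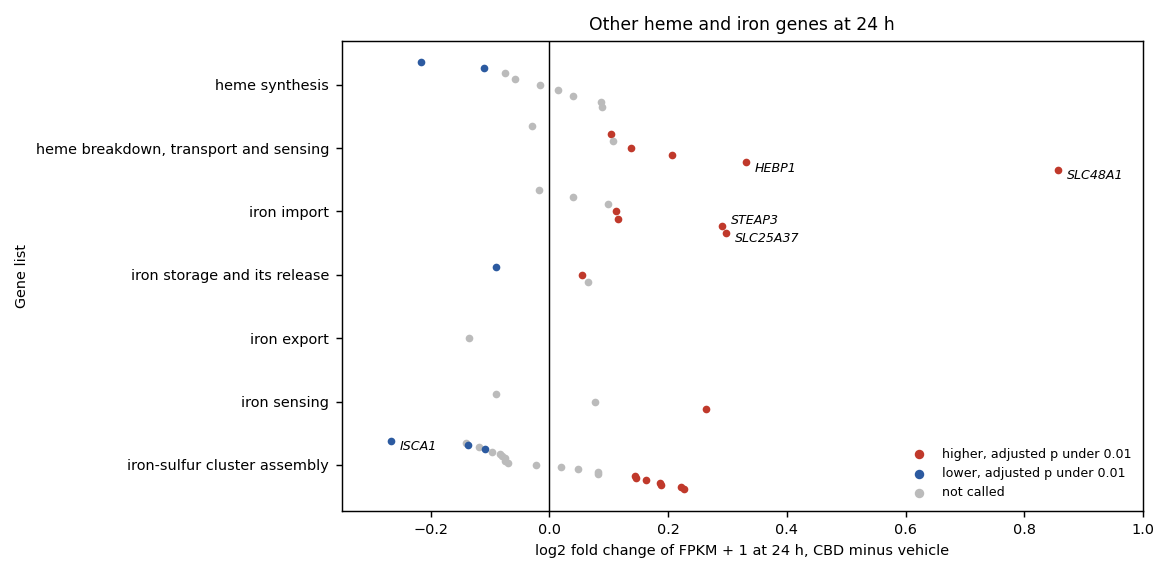
Log2 fold change of FPKM + 1, CBD minus vehicle at 24 h, of the 53 other heme and iron genes, 1 point per gene by list, red for called higher, blue for called lower (limma adjusted p under 0.01) and grey for not called. SLC48A1 stands apart at 0.86, and 18 genes are red and 6 blue, beside 20.8% and 21.3% of all genes called.

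The genes whose 4 differences between CBD and vehicle lay nearest to those of HMOX1, by root mean square difference over the 4 times, were SNORD1B (0.493), SLC7A11 (0.501) and MIR1908 (0.519). SNORD1B and MIR1908 are short RNAs. SLC7A11, the cystine importer, had 0.47, 1.08, 0.99 and 1.41 on the log2 scale. For ALAS1 they were TXNIP (0.159), SNORA71E (0.176) and MIR6843 (0.263). SNORA71E and MIR6843 are short RNAs too, and what a poly(A) library measures at such entries was not tested. TXNIP, which binds thioredoxin, had -0.43, -0.57, -0.70 and -0.84. None was within 0.4 of HMOX1, while the differences of TXNIP were smaller than those of ALAS1 at 3, 6 and 12 h and close to them at 24 h.

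Promoters were searched for letters of 2 factors known for acting on such genes. RefSeq windows (GRCh38.p14), searched over the 250 bases before the start, matched 8 of the 10 members by symbol with 9 windows. HMOX1 and FTH1 were not among them, and sites further upstream were not searched. The antioxidant response element TGACNNNGC, on either strand, was found in 10.9% of 35116 windows and among the members in that of FECH, 38 bases before the start. The ATF4 and C/EBP composite TGATGNAA was found in 3.14% of windows and in none of the 9. A match here is a description of letters, not a bound site.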

How the data were processed

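RNA-Seq of 32 samples in 8 groups of 4 was analysed. Per the methods, poly(A) libraries were read as single reads of 50 bases; the methods name a TruSEQ kit and the labels a Nugen kit, and the run is called first stranded. The authors trimmed reads (Trimmomatic 0.36 in the submitters' processing notes), aligned them to hg19 with Tophat and deposited FPKM per gene and sample from Cufflinks; read totals are not kept in FPKM. Their second table holds Cuffdiff fold changes and q values and was not used.

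A value of 1 was added to FPKM before log2. The 12621 genes whose mean FPKM reached 1 entered a fit with limma 3.58.1 in R 4.3.3 as 8 group means (eBayes with trend), with Benjamini-Hochberg adjustment within each comparison and a threshold of 0.01. The script was tested on simulated data. The members, gene lists and tests were chosen with earlier results of these data known; 1 listed gene is not reported here and is left out of the list counts.

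The genes named are the 10 members, other heme and iron genes called in at least 2 CBD comparisons with a log2 difference of at least 0.25, those called by at least 0.5 with time in vehicle, and for HMOX1 and ALAS1 the 3 genes nearest in pattern; exceptions are said in place. Positions, exons and transcripts are from GENCODE on GRCh37. Alternatives were another value before the logarithm, other filters, median-ratio scaling, quantile normalization, eBayes without trend, a block for the replicate number, only the groups compared, and each sample left out. CBD and vehicle samples of the same time and replicate number did not deviate together (16 pairs, correlations from -0.0757 to 0.0935).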

Additional observations from a re-analysis of the deposited data

Results flagged for a closer look

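In groups of 4 samples, 1 value was far from the other 3 in 16 of 280 groups checked over 35 genes; chance alone marks about 1 group in 20. Among the members these were ALAS1 in CBD 12 h replicate 2 (5.02 FPKM, others 5.58 to 5.68), CPOX in CBD 24 h replicate 4 (8.24, others 7.49 to 7.50), FECH in CBD 12 h replicate 4 (4.20, others 4.37 to 4.41), HMOX1 in vehicle 12 h replicate 4 (1.01, others 0.874 to 0.886) and HMOX2 in CBD 3 h replicate 1 (23.2, others 20.4 to 20.9). BLVRB stood apart in CBD 24 h replicate 2 (1.13 FPKM, others 0.961 to 0.965), and FTH1 in vehicle 6 h replicate 1 (519, others 493 to 496) and CBD 3 h replicate 2 (562, others 533 to 537). Among the other genes they were FLVCR1 in vehicle 6 h replicate 3 (13.4 FPKM) and FBXL5 in CBD 6 h and CBD 24 h replicate 4 (11.1 and 13.0). The same held for BLVRA in vehicle 24 h replicate 4 (45.5 FPKM), TMEM14C in CBD 12 h replicate 1 (44.2), NCOA4 in vehicle 6 h replicate 3 (41.3), PCBP1 in CBD 6 h replicate 4 (230.0) and IREB2 in vehicle 3 h replicate 1 (25.2). No cause was tested.

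In limma's test of the CBD effect at 24 h against 3 h, 14 of the 53 other heme and iron genes passed. Of these, 10 were more positive and 4 more negative at 24 h, where 12.9% and 14.3% of all genes were so called. Some of them were named only after their values were seen. The CBD effect is compared below as its log2 value at 24 h minus that at 3 h. It was larger at 24 h for SLC48A1 (0.72, adjusted p = 4.34e-07), FLVCR1 (0.34, adjusted p = 7.42e-08), SLC25A37 (0.31, adjusted p = 8.22e-07), STEAP3 (0.27, adjusted p = 0.000734), HEBP1 (0.25, adjusted p = 0.0011), FBXL5 (0.25, adjusted p = 5.53e-06), POR (0.19, adjusted p = 0.00632), HSPA9 (0.18, adjusted p = 0.000926), SLC11A2 (0.17, adjusted p = 0.0061) and SLC39A14 (0.14, adjusted p = 0.00449). It was more negative at 24 h for ISCA1 (-0.28, adjusted p = 6.74e-06), NUBP1 (-0.23, adjusted p = 0.004), ALAD (-0.16, adjusted p = 0.00139) and PCBP1 (-0.14, adjusted p = 0.00212). The call was lost under 10 of 25 alternatives for POR (adjusted p up to 0.0329), 12 for SLC11A2 (up to 0.0187), 7 for SLC39A14 (up to 0.0231) and 4 for NUBP1 (up to 0.0126). That of PCBP1 was lost under quantile normalization, where the difference was -0.035 (adjusted p = 0.53). FLVCR1 was called lower at 3 h and higher at 12 and 24 h, and its calls at 3 and 12 h were lost with only the groups compared fitted. HMOX2 had every CBD sample below vehicle at 6 h (log2 difference -0.057) and above vehicle at 24 h (0.17); that difference was not tested.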

How the results depend on the processing

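Only 1 result reversed: SLC40A1, higher with time in vehicle (0.15), had -0.0038 under quantile normalization, and the cause was not tested. With the groups compared fitted alone, the genes called with CBD numbered 29 in place of 310 at 3 h and 425 in place of 1288 at 6 h, and among the 53 other heme and iron genes 0 were lower at 3 h, 1 higher and 0 lower at 6 h, and 0 lower at 12 h. This fit has fewer samples. Those lower at 12 h (2) were 1 without a filter, 1 under median-ratio scaling and 5 under quantile normalization. Members higher with time in vehicle (2) were 1 with a mean FPKM of at least 5 and 1 under quantile normalization; the first of these filters removes FECH. With a replicate block, other genes higher at 12 h were 7 in place of 4, and no other count moved by over 1.5 times. Replicate numbers were compared only between CBD and vehicle of the same time, and did not pair those samples.

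Leaving out 1 sample at a time, all genes called at 3 h ranged from 164 (without vehicle replicate 4) to 493 (without CBD replicate 1), with 184 without vehicle replicate 3, and 169 and 196 without CBD replicates 2 and 3. Other genes lower ranged from 1 to 2 at 6 h and from 0 (without CBD replicate 1) to 3 at 12 h, and those higher at 3 h from 0 to 2 (without CBD replicate 1). The fold changes of HMOX1 depend most on the value added before the logarithm, from 1.12 to 2.75 at 24 h, and those of ALAS1 ran from -0.96 to -0.57. FPKM keep no read totals, so the precision that depth gives BLVRB and HMOX1, the lowest members in vehicle, is unknown.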
